A study of Homo sapiens with 15 samples.

Results

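The distal end of the long arm of chromosome 21 was followed gene by gene through 5 sublines of VCaP, an established human prostate cancer cell line. The members were all genes of chromosome 21 that started between base 42648271 and base 46259390 (GRCh38) and had a mean count of at least 10 over the 15 libraries, with 1 gene left out. They numbered 58 of 148 genes in that range and of 58381 genes counted, and the other 90 were below the minimum count. FTCD (mean count 10.07) and GATD3 (10.47) lay just above the minimum, and LINC00316 (8.53) and ENSG00000272825 (8.4) just under it. All 58 members passed the low count filter of the test, and 4 of the 90 did so as well. The stretch was selected on measured values, the change of its genes between VCaP-T and VCaP-CT, which were higher in VCaP-CT, and on the mean count. Every value in these 2 sublines is therefore a description, and tests are given for single members only between the other 3 sublines.

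VCaP-T cells were kept at 10 nM testosterone for 7 months. VCaP-CT was made from VCaP-T by 10 further months with testosterone reduced to 0.1 nM, as the methods of the study state, although the sample labels list 10 nM for all 5 sublines. VCaP-CT-ER was grown out of VCaP-CT under 10 µM enzalutamide (ENZ), an antiandrogen. VCaP-CT-BR came from VCaP-CT under the older antiandrogen bicalutamide, and its label also mentions later ENZ. VCaP-CT-BR-ER was made resistant to bicalutamide and then to ENZ. All cells grew in hormone-stripped serum, all 4 derived sublines share the passage at reduced testosterone, and each subline has 3 replicates of a single derivation, so that treatment, time in culture and derivation cannot be told apart. The defining prostate genes were present, with HOXB13 at 595 CPM (counts scaled to library size) for VCaP-T and 709 CPM for VCaP-CT, and the luminal keratin KRT18 between 246 and 695 CPM as subline means, whereas the fibroblast gene COL1A2 had 0 counts throughout and the leukocyte gene PTPRC had a subline mean of at most 0.034 CPM. Of the other markers of foreign cells, the fibroblast gene COL1A1 was at 6.56 CPM for VCaP-T and between 0.431 and 1.01 CPM in the derived sublines. The endothelial gene PECAM1 was at 2.94 CPM for VCaP-T, 2.57 for VCaP-CT and between 0.0517 and 0.121 CPM in the remaining sublines, and the part of such cells in the results was not tested. KLK3, an androgen-induced gene, was at 3560 CPM for VCaP-T and between 14.1 and 521 CPM in the other sublines, and whether androgen signalling had a part in the results was not tested. Libraries held 33665716 to 46935279 counts, and all 15 were most like a library of their own subline.

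Chromosome 21 is the smallest human autosome, and its long arm ends in a gene-dense band. In VCaP cells the long arm is also the home of the fusion of TMPRSS2 with ERG, which puts an ETS factor under androgen control. The members do unrelated jobs. They include enzymes of intermediary metabolism (CBS, PDXK, PFKL, LSS), RNA-binding and ribosome assembly proteins (U2AF1, ADARB1, RRP1, PWP2), the modifier SUMO3, and chains of basement membrane and beaded-filament collagens (COL18A1, COL6A1, COL6A2). By type, 36 members were protein-coding, 19 were lncRNA genes, 1 was a miRNA gene and 2 were pseudogenes.

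As a whole the members were lowest in VCaP-T and stood higher in the 4 derived sublines. The median over the 58 members of the log2 CPM, taken relative to the VCaP-T mean of each gene, was 0.775, 0.853 and 0.680 in the 3 VCaP-CT libraries. It was 0.265, 0.322 and 0.173 for VCaP-CT-ER, 0.464, 0.584 and 0.500 for VCaP-CT-BR, and 0.644, 0.774 and 0.638 for VCaP-CT-BR-ER. The VCaP-T libraries themselves spread from -0.047 to 0.059. Thus every VCaP-CT-ER library lay below every VCaP-CT-BR library, and every VCaP-CT-BR library below every VCaP-CT-BR-ER library, while VCaP-CT and VCaP-CT-BR-ER overlapped. The share of all counts that fell on the members told the same order, with 0.193% ± 0.006 (SD, n = 3) in VCaP-T, 0.305% ± 0.018 for VCaP-CT, 0.228% ± 0.010 for VCaP-CT-ER, 0.258% ± 0.011 for VCaP-CT-BR and 0.289% ± 0.007 for VCaP-CT-BR-ER. These are bulk cultures, in which fewer cells with a raised level and less RNA per cell cannot be told apart.

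**Figure D1:**
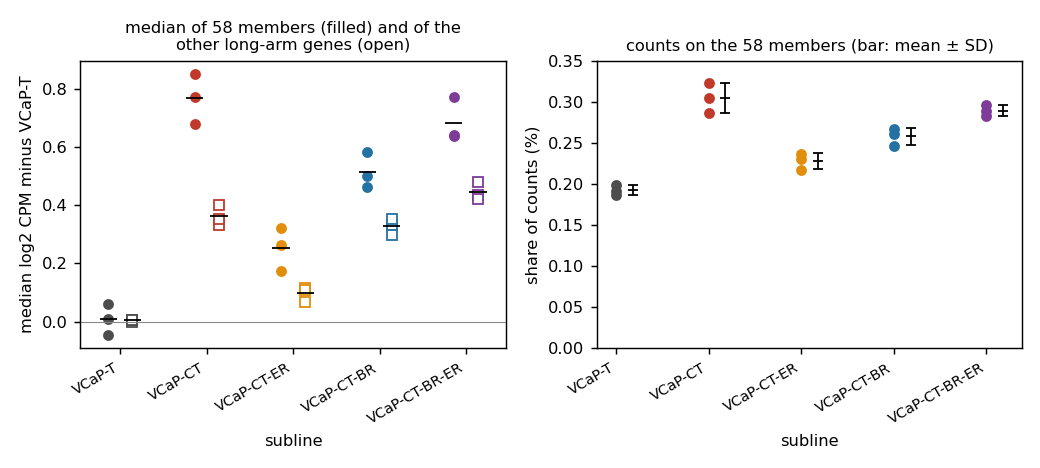
Left, median log2 CPM relative to VCaP-T per library (y axis) for the 58 members (filled circles) and for the other tested genes of the long arm (open squares), by subline (x axis), with black bars for the mean of 3 libraries. Right, percent of all counts on the members, with the mean ± SD beside the points; the VCaP-CT points reach 0.323% and the VCaP-T points stay at or under 0.199%.

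The rest of the long arm moved in the same direction with a smaller median. Over the other tested genes of the arm the subline means of the same measure were 0.36 for VCaP-CT, 0.10 for VCaP-CT-ER, 0.33 for VCaP-CT-BR and 0.45 for VCaP-CT-BR-ER. The members stood at 0.77 beside 0.36 in VCaP-CT and at 0.69 beside 0.45 in VCaP-CT-BR-ER. All these values are relative to VCaP-T, which the choice of the stretch used. The choice thus favours such a gap in every derived subline, most directly in VCaP-CT.

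Counted gene by gene, 47 of the 58 members were called higher and 4 lower in VCaP-CT than in VCaP-T, where 33.1% of all 19621 genes tested were called higher and 32.2% lower. In 45 members all VCaP-CT libraries lay above all VCaP-T libraries, and in 5 below, where 33.6% and 33.1% of all genes did so. Because the choice used this contrast, nothing is read from these counts. The median log2 fold change of the members was 0.83, with an interquartile range from 0.46 to 1.34, whereas the median of all genes was 0.03. Against VCaP-T, VCaP-CT-ER had 29 members called higher and 12 lower (background 34.3% and 34.7%), with a median of 0.25. VCaP-CT-BR had 38 higher and 10 lower (background 35.9% and 35.3%), with a median of 0.53. VCaP-CT-BR-ER had 40 higher and 7 lower (background 34.9% and 35.3%), with a median of 0.69. All 4 contrasts share the VCaP-T libraries, which the choice used, so it favours higher calls in each of them. Relative to VCaP-CT, 44 members were called lower and 3 higher in VCaP-CT-ER (background 31.2% and 29.6%), and 32 lower and 1 higher in VCaP-CT-BR (background 27% and 26.1%). Members chosen as high in VCaP-CT are favoured to be lower elsewhere, so nothing is read from the counts against VCaP-CT.

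Ordered by their mean level, 27 of the 58 members (46.6%) peaked in VCaP-CT, and VCaP-CT-BR-ER was highest for 18 (31%), whereas among all genes tested these sublines were highest for 18.3% and 13.6%. VCaP-T was the lowest subline for 36 members (62.1%), against 32.3% of all genes, and VCaP-CT was the lowest for 0 members. The choice of members favours a peak in VCaP-CT and a low in VCaP-T, so nothing is read from these shares.

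**Figure D2:**
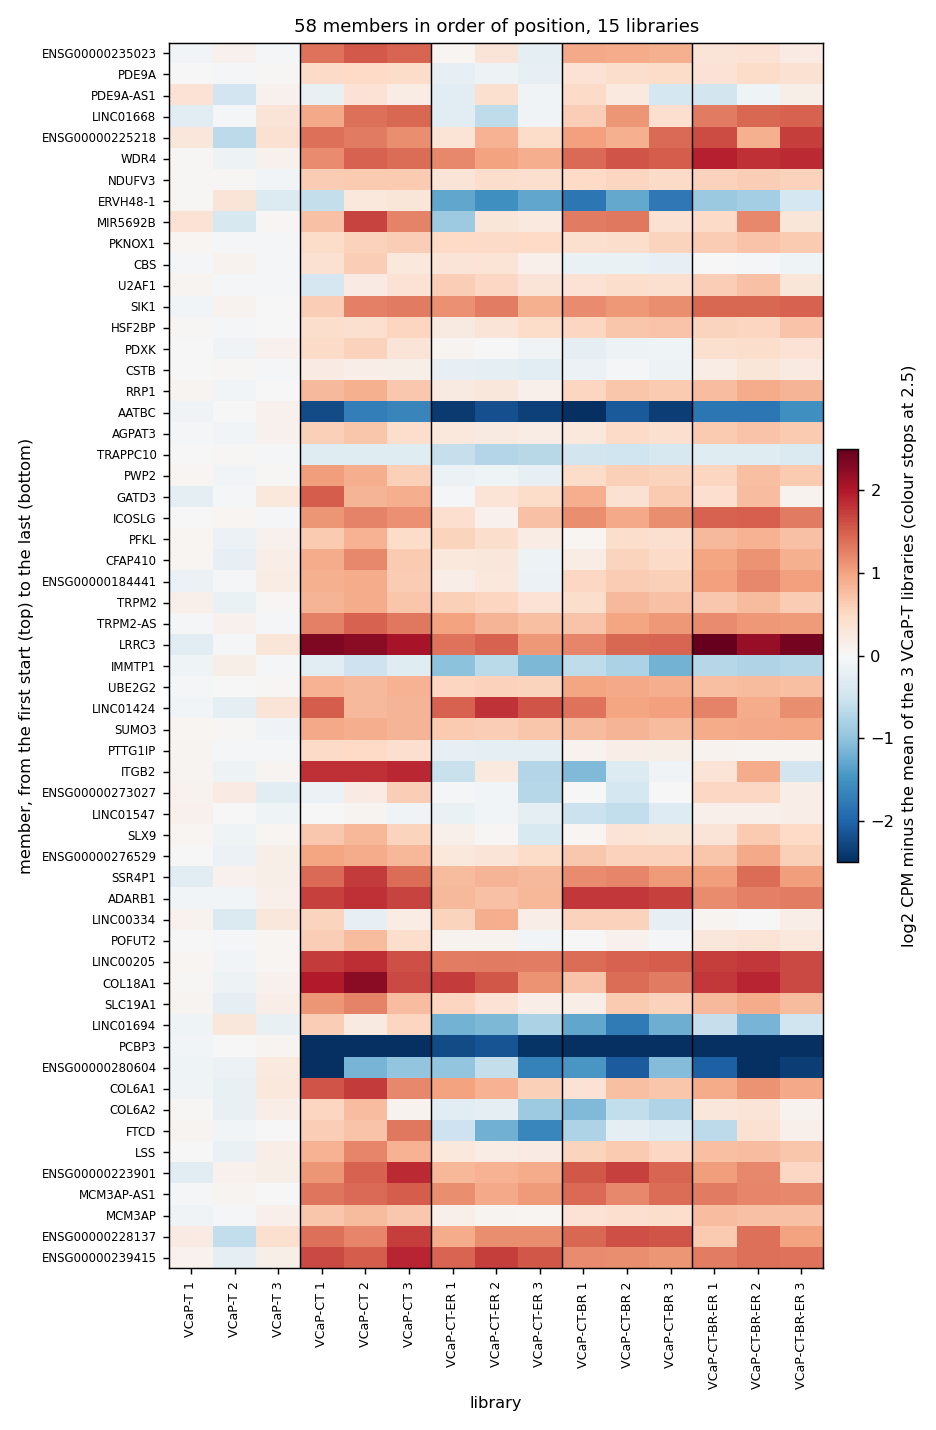
Each row is 1 of the 58 members in order of position, each column 1 of the 15 libraries, and the colour gives the log2 CPM minus the mean of the 3 VCaP-T libraries of that gene, stopped at 2.5 in both directions. Red prevails in the VCaP-CT columns, with AATBC, PCBP3 and ENSG00000280604 among the blue rows in all 4 derived sublines.

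Along the chromosome the change was uneven. In windows of 1 Mb the median log2 fold change of VCaP-CT minus VCaP-T was 0.04 from 42 to 43 Mb, where 10 of 19 tested genes were members, 0.46 from 43 to 44 Mb, 0.85 from 44 to 45 Mb, 1.28 from 45 to 46 Mb and 1.01 from 46 to 47 Mb. In the same windows VCaP-CT-ER had medians of -0.49, 0.23, 0.14, 0.69 and 0.17 against VCaP-T. VCaP-CT-BR had -0.70, 0.38, 0.55, 0.53 and 0.82. VCaP-CT-BR-ER had -0.18, 0.57, 0.70, 0.91 and 0.87. The window from 42 to 43 Mb was the lowest of the 5 in every subline, but 9 of its genes lay outside the stretch. Just before these windows, from 41 to 42 Mb, the median over 15 tested genes was 0.79 for VCaP-CT. It was -0.32 for VCaP-CT-ER, 0.11 for VCaP-CT-BR and 0.25 for VCaP-CT-BR-ER. For VCaP-CT the running median of 9 genes reached 1.54 in the stretch, at ADARB1, and 1.63 outside it, at BACE2. Over the members alone, split by start into 4 parts of 13, 16, 17 and 12 genes, the medians were 0.65, 0.80, 0.90 and 1.01 for VCaP-CT. They were 0.27, 0.22, 0.36 and 0.15 for VCaP-CT-ER, 0.50, 0.56, 0.47 and 0.49 for VCaP-CT-BR, and 0.59, 0.69, 0.75 and 0.74 for VCaP-CT-BR-ER. The members of the first part were thus above VCaP-T in every derived subline at the median, which the choice favours. The lowest part was the fourth in VCaP-CT-ER and the third in VCaP-CT-BR. Over the 58 members the rank correlation of the VCaP-CT minus VCaP-T change with position was 0.23, and with the mean level -0.02, both across genes of the same libraries.

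**Figure D3:**
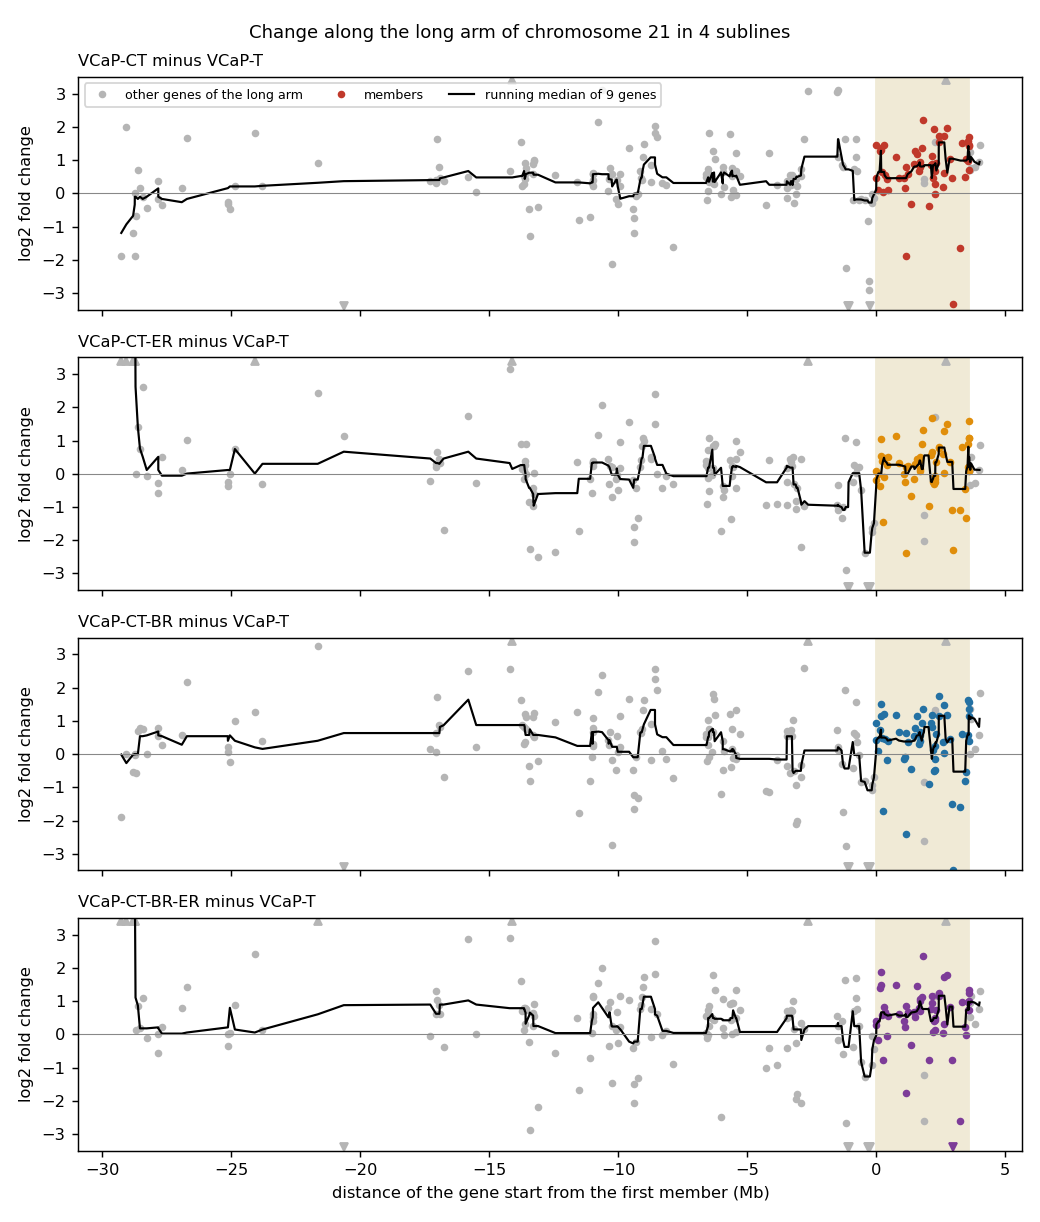
Log2 fold change against VCaP-T (y axis) of each tested gene of the long arm, by the distance of its start from that of the first member (x axis, Mb), 1 panel per derived subline. Coloured points are members, grey points other genes, triangles genes beyond the axis, the line the running median of 9 genes, which leaves the axis at the far left in the panels whose subline names end in ER, and the shaded band the range of the members; the line dips below 0 just before the band and lies above 0 in most of it.

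At its near edge the stretch met genes that went the other way. The stretch was chosen on the change between VCaP-T and VCaP-CT, so the choice favours a step there in VCaP-CT. The 9 tested genes just before the first member were all below their VCaP-T level in every derived subline, and their median log2 fold changes were -0.27 for VCaP-CT, -2.37 for VCaP-CT-ER, -1.09 for VCaP-CT-BR and -1.26 for VCaP-CT-BR-ER. The closest of them were RSPH1, a protein of the ciliary radial spoke (-0.03 for VCaP-CT), SLC37A1, a sugar-phosphate exchanger (-0.27), and the lncRNA gene ENSG00000235772 (-0.14). Inside the edge the first members were ENSG00000235023 (1.46), PDE9A (0.48) and PDE9A-AS1 (0.11). Of the 9 genes before the edge, 6 were called lower in VCaP-CT (32.2% of all genes) and 3 were not called. ZBTB21, the tested gene next before the 9, was at -0.21 for VCaP-CT and -0.025 for VCaP-CT-BR. It was at 0.21 for VCaP-CT-ER and 0.25 for VCaP-CT-BR-ER.

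The far edge was no step in VCaP-CT. The last members were MCM3AP (0.72), ENSG00000228137 (1.46) and ENSG00000239415 (1.71), and behind them YBEY had 0.71, C21orf58 1.25 and PCNT 0.77. Over the 6 tested genes beyond the last member the median was 0.87 for VCaP-CT, 0.12 for VCaP-CT-ER, 0.82 for VCaP-CT-BR and 0.87 for VCaP-CT-BR-ER. Before the stretch, the 158 tested genes of the long arm had medians of 0.37, 0.12, 0.29 and 0.44. TMPRSS2, on the near side, was at 651 CPM for VCaP-T and 137 CPM for VCaP-CT (log2 fold change -2.25), and ERG at 531 and 415 CPM (-0.36).

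For 8 members the counts depend on where the aligner placed reads, since GRCh38 holds stretches of this region a second time on the short arm. CBS, U2AF1, SIK1, PWP2, ICOSLG and GATD3 had 100% of their counted exon bases in such stretches, TRAPPC10 45.3% and HSF2BP 40.4%, at an identity of 98% or more over at least 1000 bases. PWP2, which assembles the small ribosomal subunit, shows how close the copies are. Its coding sequence of 2757 bases differs from that of the copy at 4 bases, an identity of 99.85%. The stretch around the first of these differences is shown for both loci, in the direction of the PWP2 transcript, with the differing base in capitals (G31A, counted from the first base shown). PWP2 lies at chr21:44109008-44109068, plus strand, in a coding exon, and the copy at chr21:5152989-5153049, minus strand.
PWP2: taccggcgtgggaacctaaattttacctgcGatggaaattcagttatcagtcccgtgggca
copy: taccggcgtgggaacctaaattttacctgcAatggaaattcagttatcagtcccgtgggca

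The copy, counted as ENSG00000275464 and typed as an artifact in GENCODE release 44, held 671.3 counts per library on average and PWP2 itself 75.1, so that 89.9% of their joint counts went to the copy. The share at the copy was also 89.9% for GATD3, 55.6% for SIK1, 36.2% for CBS, 25.6% for ICOSLG, 5.9% for TRAPPC10 and 2.6% for U2AF1. With the CPM of member and copy added, the VCaP-CT minus VCaP-T log2 fold change was 0.92 for PWP2 (0.88 for the member alone), 1.36 for ICOSLG (1.2), 0.65 for GATD3 (1.28), 0.52 for SIK1 (1.11), 0.19 for CBS (0.43) and 0.10 for U2AF1 (0.09). The values of CBS, SIK1 and GATD3 thus depended on the placement of reads. A further limit is that the counting ignored strand and 20 members share exon bases with another gene, among them ADARB1 with SSR4P1, COL18A1 with SLC19A1, PCBP3 with ENSG00000280604, LSS with ENSG00000223901, and MCM3AP with MCM3AP-AS1 and ENSG00000239415. The 31 members with neither a copy nor an overlap had a median of 0.69 for VCaP-CT.

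Among the genes for collagens and surface proteins, all 8 members were higher in VCaP-CT, with a median of 1.36. In VCaP-CT 47 of the 58 members and 33.1% of all genes were called higher, and the choice used this contrast. Nothing about a group is therefore read from the VCaP-CT counts given here and for the groups below. LRRC3, which encodes a small leucine-rich repeat protein, had the highest value of the members whose average log2 CPM reached 1. Its level was 1.71, 2.04 and 2.59 CPM for VCaP-T, 10.7, 10.1 and 8.83 for VCaP-CT, 5.43, 5.89 and 4.45 for VCaP-CT-ER, 4.93, 5.76 and 5.78 for VCaP-CT-BR, and 12.4, 9.60 and 11.1 for VCaP-CT-BR-ER. The log2 fold change against VCaP-T was 2.21 for VCaP-CT and 2.37 for VCaP-CT-BR-ER, whose libraries overlapped, and it was 1.31 and 1.36 for VCaP-CT-ER and VCaP-CT-BR. COL18A1, the precursor of endostatin, followed with 6.77, 6.07 and 7.18 CPM for VCaP-T, 26.4, 31.9 and 21 for VCaP-CT, 22.5, 19.8 and 14.7 for VCaP-CT-ER, 11, 17.5 and 16.5 for VCaP-CT-BR, and 22.7, 25 and 21.2 for VCaP-CT-BR-ER (1.98 for VCaP-CT). No derived library of COL18A1 came down to the VCaP-T range, but the derived sublines overlapped each other in part.

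The neighbouring collagen VI genes, whose chains assemble into 1 microfibril with COL6A3 from another chromosome, differed in their course. COL6A1 was at 17.4 ± 2.95 CPM (SD, n = 3) in VCaP-T, 49.7 ± 9.01 for VCaP-CT, 30.6 ± 4.36 for VCaP-CT-ER, 26.4 ± 3.71 for VCaP-CT-BR and 34.7 ± 2.74 for VCaP-CT-BR-ER. COL6A2 started from a like level of 16.4 ± 1.98 CPM and reached 23.0 ± 5.36 for VCaP-CT, but only 11.9 ± 2.83 for VCaP-CT-ER and 9.30 ± 1.53 for VCaP-CT-BR, and 19.4 ± 1.70 for VCaP-CT-BR-ER. So COL6A1 stayed above its VCaP-T level in all derived sublines, whereas COL6A2 was below it in VCaP-CT-ER and VCaP-CT-BR, without overlap of the libraries. COL6A3, with a mean count of only 6.2, had a log2 fold change of -2.29 for VCaP-CT.

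The other surface genes ranged widely in level. PTTG1IP, a binding partner of securin and per length the most abundant member (107 CPM per kb of exon), had a value of 0.46 for VCaP-CT and of -0.23 for VCaP-CT-ER. TRPM2, a calcium-permeable channel, had 0.82, and ICOSLG, the ligand of a T cell costimulator, 1.2. ITGB2, the beta chain of the leukocyte integrins, went from 0.449 ± 0.0353 CPM for VCaP-T to 1.74 ± 0.0431 CPM for VCaP-CT (1.94) and back to 0.360 ± 0.160 CPM for VCaP-CT-ER, while the leukocyte marker PTPRC stayed at or near 0.

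All 10 metabolic members were higher in VCaP-CT, with a median of 0.66. The range ran from CBS (0.43), which starts transsulfuration, and PDXK (0.46), which activates vitamin B6, to SLC19A1 (1.05), the reduced folate carrier, and GATD3 (1.28). Both ends depended on the placement of reads, and with the counts of the copies added CBS was at 0.19 and GATD3 at 0.65. LSS, the cyclase that forms lanosterol, was at 15.2 ± 1.81 CPM for VCaP-T, 30.3 ± 4.49 for VCaP-CT, 17.7 ± 0.539 for VCaP-CT-ER, 22.7 ± 1.18 for VCaP-CT-BR and 25.4 ± 0.622 for VCaP-CT-BR-ER. PFKL, the liver type of phosphofructokinase, went from 132 ± 12 CPM to 210 ± 30 for VCaP-CT and 230 ± 10.2 for VCaP-CT-BR-ER. NDUFV3, a small subunit of complex I, was at 69.6 ± 2.55 CPM for VCaP-T and 109 ± 1.09 CPM for VCaP-CT. Relative to VCaP-T, 6 of the 10 were called higher and 1 lower in VCaP-CT-ER (34.3% and 34.7% of all genes). In VCaP-CT-BR 5 were higher and 1 lower (35.9% and 35.3%), and in VCaP-CT-BR-ER 7 were higher and 0 lower (34.9% and 35.3%). The choice used VCaP-T, so nothing about the group is read from these counts. CBS, among the 6 higher in VCaP-CT-ER with 0.27, was at -0.19 there with the counts of its copy added.

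Of the 8 RNA-binding and ribosome assembly genes, 6 were higher and 1 lower in VCaP-CT. ADARB1, an editor of adenosine in double-stranded RNA, was at 26.6, 26.6 and 30.5 CPM for VCaP-T and 91.4, 98.6 and 89.6 CPM for VCaP-CT. Its level was 49.1, 46.4 and 49.5 CPM for VCaP-CT-ER, 95.0, 94.4 and 90.7 for VCaP-CT-BR, and 63.7, 66.7 and 67.9 for VCaP-CT-BR-ER. VCaP-CT and VCaP-CT-BR overlapped, and VCaP-CT-BR-ER as well as VCaP-CT-ER lay below them and above VCaP-T.

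PCBP3, a poly(C)-binding protein, was the clear exception. It had 11.5, 12 and 12.6 CPM for VCaP-T but 1.24, 1.11 and 1.26 for VCaP-CT, 2.53, 2.67 and 2.16 for VCaP-CT-ER, 1.17, 0.994 and 1.09 for VCaP-CT-BR, and 0.947, 0.596 and 0.760 for VCaP-CT-BR-ER. The log2 fold change of PCBP3 in VCaP-CT was -3.33. LINC01694, the member before it, was higher (0.47). The member next behind it by start, ENSG00000280604, which shares exon bases with PCBP3, had -1.64, and COL6A1, which follows, was higher (1.51). WDR4, which methylates tRNA together with METTL1, was higher in all derived sublines (1.36, 1.04, 1.5 and 1.88), and RRP1, a factor of ribosomal RNA processing, had 0.79, 0.22, 0.63 and 0.86.

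The 3 genes for SUMO, ubiquitin and protease inhibition were higher in VCaP-CT. SUMO3, a modifier conjugated to nuclear proteins, was at 153, 151 and 140 CPM for VCaP-T, 286, 276 and 265 for VCaP-CT, 234, 228 and 241 for VCaP-CT-ER, 258, 266 and 258 for VCaP-CT-BR, and 280, 286 and 289 for VCaP-CT-BR-ER. UBE2G2, a conjugating enzyme of endoplasmic reticulum quality control, had 0.85, and CSTB, an inhibitor of cathepsins, 0.18. CSTB was thus among the members that moved least.

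Of the 6 regulators and trafficking genes, 5 were higher and TRAPPC10 lower. TRAPPC10, a subunit of a tethering complex of the Golgi, was at 60.5, 60.7 and 58.8 CPM for VCaP-T and 48.6, 48.2 and 48.7 for VCaP-CT, a log2 fold change of -0.31. Its values in the other sublines were -0.67, -0.46 and -0.32. PKNOX1, a homeobox factor, had 0.55, SIK1, a kinase of the AMPK family, 1.11, and CFAP410, a protein of the ciliary base, 0.94.

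The 19 lncRNA members had a median of 1.13 for VCaP-CT against 0.76 for the 36 protein-coding members. LINC00205 was at 17.9 ± 0.796 CPM for VCaP-T and 59.5 ± 4.61 for VCaP-CT (1.73), and MCM3AP-AS1, which overlaps the export factor gene MCM3AP, had 1.43. LINC01547 was level, with 5.31, 4.93 and 4.57 CPM for VCaP-T and 4.89, 5.18 and 4.61 for VCaP-CT (-0.01). AATBC went from 3.61 ± 0.238 CPM for VCaP-T to 0.965 ± 0.211 for VCaP-CT (-1.90), and remained between 0.684 and 1.07 CPM in the other sublines.

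**Figure D4:**
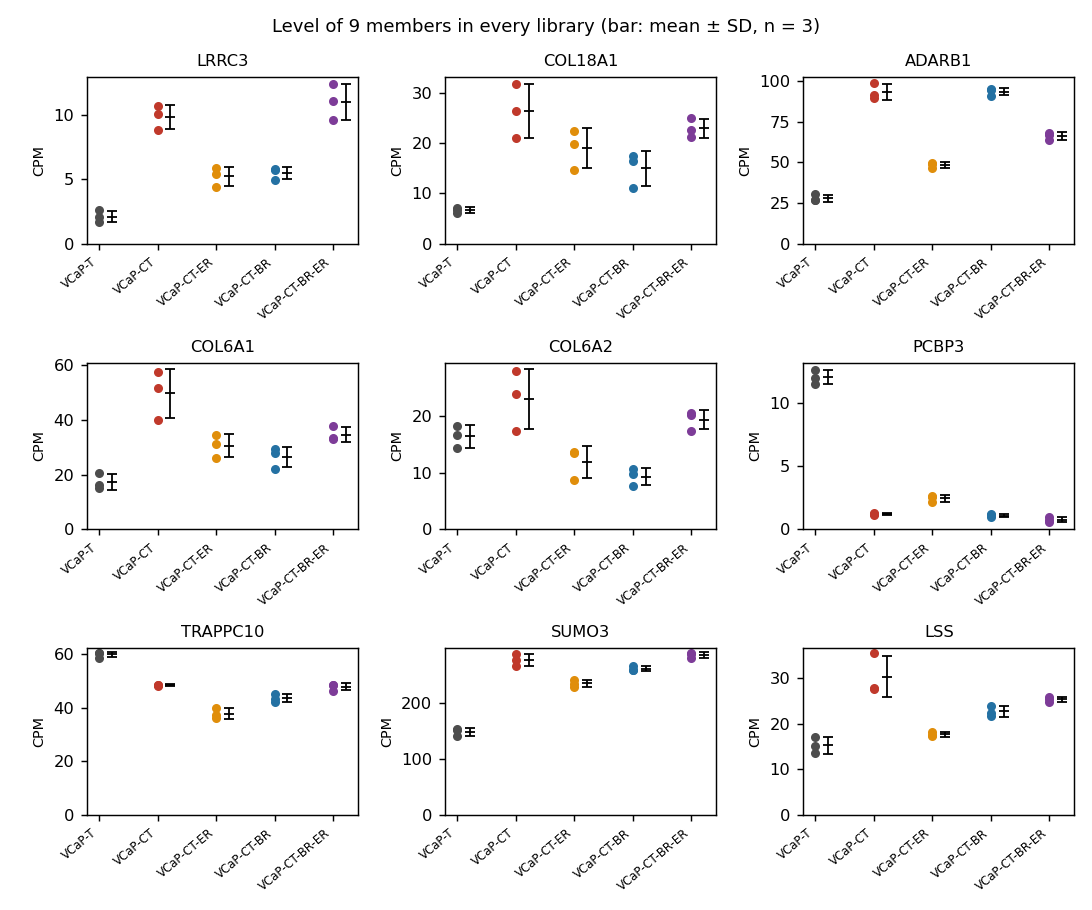
CPM (y axis, from 0) of 9 members in each of the 15 libraries, by subline (x axis), with the mean ± SD of 3 libraries beside the points. LRRC3, COL18A1 and COL6A1 are lowest in VCaP-T, COL6A2 is lowest in VCaP-CT-BR, and PCBP3 and TRAPPC10 are highest in VCaP-T.

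Genes elsewhere that work with the members or are their paralogs gave a comparison off the chromosome. Of 31 such genes 28 were tested. In VCaP-CT minus VCaP-T 11 were called higher and 8 lower (33.1% and 32.2% of all genes), with a median of 0.07. Some partners were level or lower, such as SUMO2 (0.15 beside 0.90 for SUMO3), PFKM and PFKP (0.12 and -1.36 beside 0.67 for PFKL), ADAR (0.09 beside 1.74 for ADARB1) and METTL1 (0.06 beside 1.36 for WDR4). Others were higher by about as much as the member or by more. Among these were CTH (0.45 beside 0.43 for CBS), POFUT1 (0.52 beside 0.63 for POFUT2), MCM3 (0.68 beside 0.72 for MCM3AP), SQLE (0.84 beside 0.99 for LSS), U2AF2 (0.60 beside 0.09 for U2AF1) and CSTA (1.71 beside 0.18 for CSTB). The counts of CBS and U2AF1 depend on the placement of reads, and with their copies added the values were 0.19 and 0.10.

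To show the sequence in front of members that moved together, promoters of RefSeq (GRCh38.p14; 250 bases before to 50 after a start) were read for the 37 members found there by symbol, 51 promoters in all, some of which overlap. The GC box GGGCGG, bound by SP1 and its relatives, was in 36 of the 51 (70.6%) on either strand, compared with 45.0% of all 35116 promoters. CCAAT was in 15.7% against 34.6%, the E box CACGTG in 11.8% against 7.3%, and TATAAA in 5.9% against 11.5%. The full palindromic androgen response element was in 0 of the 51 and in 1 of all promoters, and its left arm AGAACA, which the full element contains, was in 11.8% against 14.8%. The median G and C content was 72.3% in the member promoters and 58.7% in all. Those of LRRC3 (chr21:44455260-44455559) and COL6A2 (chr21:46097862-46098161), both on the plus strand, are printed because these members had the highest called changes of VCaP-CT-BR-ER against VCaP-CT-BR. Capitals mark matches to the motifs searched, which were 8 GC boxes in LRRC3, and 4 GC boxes and 1 TATAAA in COL6A2.
LRRC3: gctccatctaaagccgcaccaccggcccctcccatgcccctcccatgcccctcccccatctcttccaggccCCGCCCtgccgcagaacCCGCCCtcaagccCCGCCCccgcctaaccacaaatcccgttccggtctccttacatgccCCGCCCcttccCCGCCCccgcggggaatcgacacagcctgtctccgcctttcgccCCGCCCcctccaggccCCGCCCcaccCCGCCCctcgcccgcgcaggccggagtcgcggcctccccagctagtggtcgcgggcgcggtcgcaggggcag
COL6A2: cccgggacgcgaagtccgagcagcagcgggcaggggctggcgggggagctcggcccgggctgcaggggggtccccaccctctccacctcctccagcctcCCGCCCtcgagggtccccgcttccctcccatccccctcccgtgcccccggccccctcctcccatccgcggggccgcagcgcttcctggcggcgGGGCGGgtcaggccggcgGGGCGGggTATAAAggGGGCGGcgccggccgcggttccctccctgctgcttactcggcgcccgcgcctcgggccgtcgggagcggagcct

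The comparison of VCaP-CT-BR-ER with VCaP-CT-BR was not used in the choice of members. With edgeR's quasi-likelihood test and Benjamini-Hochberg adjustment over all genes, 24 members were called higher and 5 lower, beside 21.2% and 21.7% of all genes. The median log2 fold change was 0.19, against 0.00 for all genes. Of the 158 tested genes of the long arm before the stretch, 40 were called higher and 27 lower, with a median of 0.07. In 31 members all 3 VCaP-CT-BR-ER libraries lay above all 3 VCaP-CT-BR libraries, and in 6 below, where 26.7% and 26.4% of all genes did so. At the level of single genes, COL6A2 rose from 7.62, 10.6 and 9.67 CPM to 20.1, 20.6 and 17.4 CPM (log2 fold change 1.06 ± 0.17 SE, edgeR adjusted p = 2.57e-05). LRRC3 rose by 1.01 ± 0.12 (edgeR adjusted p = 1.14e-06) from 5.49 to 11 CPM on average. For both members the sublines did not overlap. In 21 members all VCaP-CT-BR-ER libraries lay above all VCaP-CT-BR libraries while all VCaP-CT-ER libraries lay below all VCaP-CT libraries, where 6.62% of all genes did so. The latter condition uses VCaP-CT, for which the members were chosen as high, so nothing is read from this count.

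In the same step 21.2% of all genes were called higher and 21.7% lower. Of the 8 matrix and surface genes 4 rose and none fell, with COL18A1 (0.61) and COL6A1 (0.39) as the others. COL6A1 lost its call without VCaP-CT-BR replicate 1 (0.29, edgeR adjusted p = 0.0986) or without VCaP-CT-BR-ER replicate 2 (0.34, edgeR adjusted p = 0.0798). Of the 10 metabolic genes 5 rose, PDXK (0.55 ± 0.06), PFKL (0.50 ± 0.11), SLC19A1 (0.37 ± 0.12), AGPAT3 (0.29 ± 0.06), an acyltransferase of phospholipid synthesis, and POFUT2 (0.28 ± 0.07), which fucosylates thrombospondin repeats. SLC19A1 lost its call without VCaP-CT-BR replicate 1 (0.25, edgeR adjusted p = 0.0957) or without VCaP-CT-BR-ER replicate 2 (0.34, edgeR adjusted p = 0.0555).

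ADARB1 went against this direction and fell by 0.50 ± 0.06 on the log2 scale (edgeR adjusted p = 4.13e-07). The largest falls among called members were those of ENSG00000235023, from 7.10, 7.01 and 6.79 CPM to 4.59, 4.69 and 4.19 CPM (-0.63 ± 0.11, edgeR adjusted p = 9.89e-05), and of ENSG00000223901 (-0.63 ± 0.19, edgeR adjusted p = 0.0107). The latter was not called without VCaP-CT-BR-ER replicate 3 (-0.45, edgeR adjusted p = 0.0789). UBE2G2 and PCBP3 were the other 2 with a call, at -0.18 and -0.49. For PCBP3 the call ended with 4 of the 6 libraries left out in turn, VCaP-CT-BR replicates 1 (adjusted p = 0.135) and 3 (0.086) and VCaP-CT-BR-ER replicates 2 (0.235) and 3 (0.0946), all by edgeR. It also ended with DESeq2 (adjusted p = 0.072), and in edgeR without the low count filter (0.115) or with a fit of 2 sublines (0.0777).

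**Figure D5:**
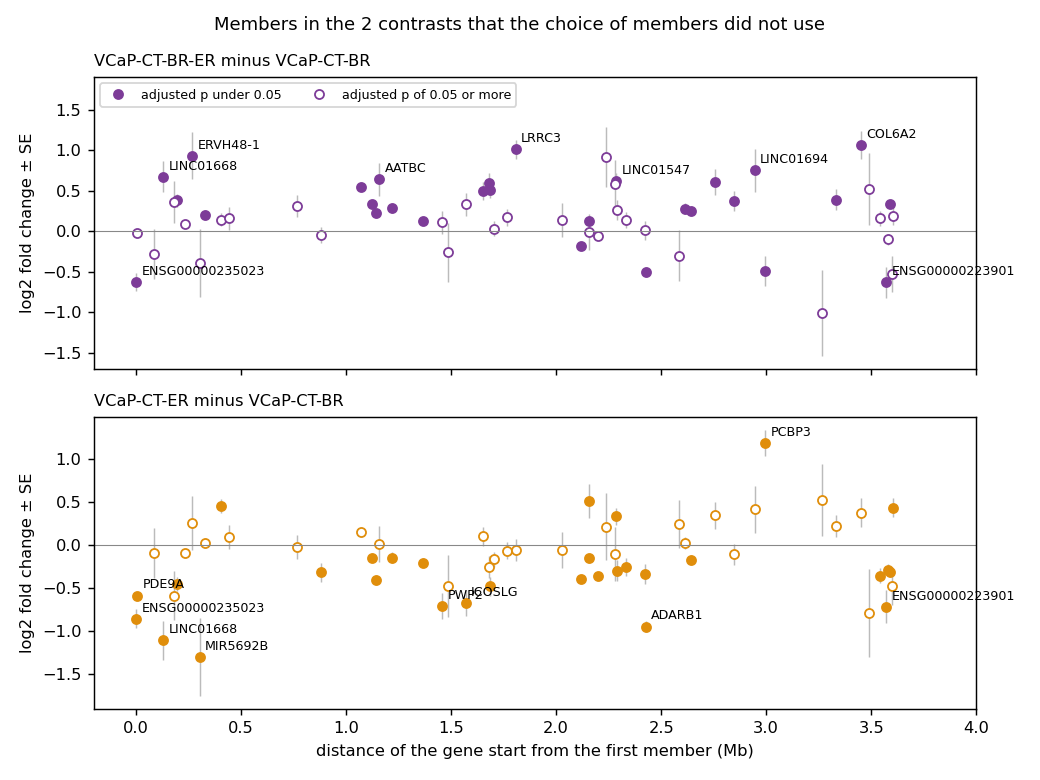
Log2 fold change ± SE (y axis) of the 58 members by distance from the first start (x axis, Mb), for VCaP-CT-BR-ER minus VCaP-CT-BR (top) and VCaP-CT-ER minus VCaP-CT-BR (bottom); filled points passed an edgeR adjusted p of 0.05. Filled points lie mostly above 0 in the top panel (24 of 29) and mostly below 0 in the bottom panel (25 of 30).

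Between VCaP-CT-ER and its counterpart VCaP-CT-BR, both grown out of VCaP-CT, lay the other contrast that the choice had not used. A figure legend of the paper gives bicalutamide alone for VCaP-CT-BR and adds ENZ only for VCaP-CT-BR-ER. The sample label departs from that description. This contrast shares the VCaP-CT-BR libraries with the comparison above. In VCaP-CT-ER 25 members were called lower and 5 higher than in VCaP-CT-BR, beside 28.8% and 27.1% of all genes, with a median of -0.15. On the long arm before the stretch, 79 of 158 tested genes were called lower and 26 higher, with a median of -0.37. Beyond the last member 5 of 6 were lower, with a median of -0.51. The lowering was thus not confined to the members. Among the members with a role in RNA, 6 of 8 were lower and 1 higher, and all 3 members for SUMO, ubiquitin and protease inhibition were lower. Of the 8 matrix and surface genes 2 were lower, PTTG1IP (-0.36) and ICOSLG (-0.68), and of the 10 metabolic genes LSS (-0.36) and AGPAT3 (-0.15) were lower and CBS (0.45) was higher. With the counts of its copy added, the value of CBS was 0.29. SUMO3 (-0.16) lost its call without VCaP-CT-ER replicate 2 (-0.13, edgeR adjusted p = 0.0535). CSTB (-0.15) lost it without VCaP-CT-ER replicate 2 or 3 (-0.13 and -0.11) or VCaP-CT-BR replicate 2 (-0.10), with edgeR adjusted p values of 0.0581, 0.0853 and 0.133. SLX9 (-0.30), a factor of ribosome assembly, lost it without VCaP-CT-ER replicate 2 or 3 (-0.33 and -0.15) or VCaP-CT-BR replicate 2 or 3 (-0.23 and -0.25), with edgeR adjusted p values of 0.0512, 0.278, 0.162 and 0.135. AGPAT3 lost its call without any 1 of 5 libraries, VCaP-CT-ER replicates 1, 2 and 3 and VCaP-CT-BR replicates 2 and 3, with edgeR adjusted p values of 0.0713, 0.11, 0.192, 0.267 and 0.135.

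ADARB1 was lower by 0.95 ± 0.06 on the log2 scale in VCaP-CT-ER (-0.95, edgeR adjusted p = 1.01e-11), at 48.3 ± 1.70 against 93.4 ± 2.36 CPM. PDE9A, a phosphodiesterase of cyclic GMP, was at 78.8, 83.1 and 79.3 CPM against 118, 122 and 124 CPM (-0.59 ± 0.04, edgeR adjusted p = 3.78e-10). PCBP3 was the highest of the called members, at 1.18 ± 0.15 (edgeR adjusted p = 6.14e-07), and remained well under its VCaP-T level in both sublines. LINC01424 (0.51 ± 0.20, edgeR adjusted p = 0.0351) came next. It was not called without VCaP-CT-ER replicate 2 (adjusted p = 0.131), VCaP-CT-BR replicate 2 (0.103) or VCaP-CT-BR replicate 3 (0.102), each by edgeR, or with DESeq2 (adjusted p = 0.0576).

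The lowest values in that contrast belonged to rare transcripts near the first edge. LINC01668 was at 0.725, 0.543 and 0.820 CPM for VCaP-CT-ER and 1.37, 1.94 and 1.19 for VCaP-CT-BR (-1.11 ± 0.23, edgeR adjusted p = 0.000279). MIR5692B, a miRNA gene of 87 bases, was at 0.0621, 0.209 and 0.199 CPM against 0.467, 0.471 and 0.223 CPM (-1.30 ± 0.45, edgeR adjusted p = 0.0194), with a mean count of 11.1 per library. Its call ended without VCaP-CT-ER replicate 1 (-0.89, adjusted p = 0.12), VCaP-CT-BR replicate 1 (-1.13, 0.0791) or VCaP-CT-BR replicate 2 (-1.12, 0.0801), all by edgeR. The reads counted there come from long RNA libraries and do not measure the mature miRNA, which RefSeq gives as follows (chr21:42950986-42951005, minus strand), with the seed, bases 2 to 8, in capitals.
hsa-miR-5692b: aAUAAUAUcacaguaggugu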

How the data were processed

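The 15 libraries are bulk RNA-seq of 5 VCaP sublines, 3 replicates each, sequenced by the authors. Per the labels and Methods, reads were aligned to GRCh38 with STAR 2.5.4b and counted with featureCounts 1.6.2 over exons of GENCODE release 28, in pairs and without strand. The deposited values are raw counts per gene, not normalized.

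The 19621 genes that passed filterByExpr (minimum count 10) were scaled by TMM and fitted in edgeR 4.0.16 (R 4.3.3), with 1 term per subline over all 15 libraries and quasi-likelihood tests, and p-values were Benjamini-Hochberg adjusted over all genes at 0.05. CPM used TMM library sizes, and log2 CPM for library medians a prior count of 2. The biological coefficient of variation was 0.061, and the script was tested on simulated data. Repeated stretches were found with blastn 2.17.0 on GRCh38. Gene types and positions of coding exons came from GENCODE release 44. SDs, SEs and p-values measure the spread between replicates of 1 derivation.

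The members, gene lists and rules were chosen with earlier results of these data known. Members were named per library when they had the 3 highest or 3 lowest changes of VCaP-CT minus VCaP-T at an average log2 CPM of at least 1, or the 2 highest or lowest called changes in the other contrasts, or lay nearest to an edge; other members were named by group. Alternatives were DESeq2 1.42.0, upper quartile scaling, other filters, a fit of 2 sublines, a replicate block, each library left out, at least 1.5-fold, and members with a mean count of at least 100, protein-coding, or without copy or overlap. 1 gene of the range is not reported here.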

Additional observations from a re-analysis of the deposited data

Results flagged for a closer look

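The members were lower in VCaP-CT-ER than in VCaP-CT and higher in VCaP-CT-BR-ER than in VCaP-CT-BR. The difference between these contrasts was not tested, because members chosen as high in VCaP-CT are favoured to be lower elsewhere, and treatment and derivation cannot be told apart. The median log2 level of the members was lower in every VCaP-CT-ER library than in every VCaP-CT library, with a difference of means of -0.516, and higher in every VCaP-CT-BR-ER library than in every VCaP-CT-BR library, with a difference of 0.169. The share of counts on the members differed by -0.077 percentage points in the first step and by 0.031 in the second. Gene by gene, 21 of the 58 members were lower in all libraries of VCaP-CT-ER than in all of VCaP-CT and higher in all of VCaP-CT-BR-ER than in all of VCaP-CT-BR, among them LRRC3, COL6A1, COL6A2, SUMO3 and LSS, where 6.62% of all genes tested did so. PCBP3 did the reverse in both steps. Groups of 3 were not examined for outlying samples.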

How the results depend on the processing

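No count or median of the members, and no single member called between the sublines outside the choice, changed direction under the alternatives run. Members without a call in these contrasts were not examined for this. Of the alternative values for the counts of called members and their medians, 310 stayed within 1.5 times of the count or within the spread between replicates, and 26 did not. Requiring at least 1.5-fold left 15 members of VCaP-CT-ER and 25 of VCaP-CT-BR higher against VCaP-T, 1 higher and 27 lower in VCaP-CT-ER than in VCaP-CT, 0 higher and 11 lower in VCaP-CT-BR than in VCaP-CT, 9 higher and 2 lower in VCaP-CT-BR-ER than in VCaP-CT-BR, and 1 higher and 8 lower in VCaP-CT-ER than in VCaP-CT-BR. The share of all genes that passed the 1.5-fold rule was not counted, so nothing about the members is read from these counts. The 1 member higher in VCaP-CT-BR than in VCaP-CT, UBE2G2, was 0 members with upper quartile scaling, with at least 10 counts in every library, with the replicate block, with a fit of 2 sublines and without VCaP-CT replicate 2 or VCaP-CT-BR replicate 1 or 2 (0 to 1 over the libraries left out). In VCaP-CT-ER against VCaP-CT-BR, 9 members were higher without the low count filter and without VCaP-CT-ER replicate 3, against 5 (4 to 9 over the libraries left out). In VCaP-CT-BR-ER against VCaP-CT-BR, 3 members were lower without VCaP-CT-BR-ER replicate 3, against 5 (3 to 5). Medians moved with the choice of members, to 0.69 (no copy or overlap) and 0.76 (protein-coding) in VCaP-CT, 0.35 in VCaP-CT-ER and -0.46 against VCaP-CT (mean count of at least 100), 0.44 for VCaP-CT-BR, and 0.27 for VCaP-CT-BR-ER minus VCaP-CT-BR (both protein-coding). The cause was not tested. Adding the counts of copies, chosen after seeing the data, moved no median beyond the spread, but it turned the sign of CBS (0.27 to -0.19), GATD3 (0.30 to -0.11) and PWP2 (-0.16 to 0.09) in VCaP-CT-ER minus VCaP-T and of SIK1 (0.03 to -0.06) in VCaP-CT-ER minus VCaP-CT. With the replicate block the members called in VCaP-CT-ER minus VCaP-CT-BR numbered 5 higher and 24 lower. Deviations of libraries with the same number had a mean correlation of -0.0058, so the numbers did not pair the samples, and 24 and 5 members were called in VCaP-CT-BR-ER minus VCaP-CT-BR under the block as without it. Of the 29 and 30 members called in these 2 contrasts, 20 and 20 kept their call under every refit that gave a value. The refits changed the method, scaling, filter, design or libraries. The 1.5-fold rule is not among them, and it left fewer members called, as given above. Rare members such as FTCD and MIR5692B are limited by depth.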
